A study of Homo sapiens with 6 samples.

Results

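FOS, FOSB, JUN, JUNB, JUND, EGR1, EGR2, EGR3, IER2 and ATF3, genes that many cells switch on within minutes of a signal, were followed in MOLT-4, a human cell line grown from a T-cell acute lymphoblastic leukemia (T-ALL). They were chosen by name as the AP-1 and EGR immediate early genes, with IER2 and ATF3 added, and are 10 of the 60640 gene identifiers in the tables. The choice was made with earlier results of these data known. Of these 10, 6 (JUN, JUNB, JUND, EGR1, IER2 and ATF3) were among the 12652 genes expressed highly enough to be tested, and FOS, FOSB, EGR2 and EGR3 were not.

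AP-1 is a pair of basic leucine zipper proteins. JUN, JUNB and JUND can pair with each other or with FOS and FOSB, whereas FOS proteins need a JUN partner, and ATF3 pairs with itself or with JUN proteins. EGR1, EGR2 and EGR3 are zinc finger activators that bind a GC-rich site. IER2 is a small nuclear protein of the early response. MAP kinases switch many of these genes on through serum response factor with its ELK partners, which bind the CArG box, and through CREB family proteins, which bind the cyclic AMP response element (CRE). In T cells, signals of the antigen receptor and of its precursor in the thymus are well known inducers, and AP-1 acts with NFAT at the promoter of IL2.

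PolyA RNA was sequenced from 3 wild type (WT) libraries, made from the control of a CRISPR knockout, and from 3 libraries labelled IK-KO, made from MOLT-4 in which IKZF1 was the CRISPR target. IKZF1 encodes the zinc finger protein IKAROS, which steers lymphoid development, and the comparison asks which transcripts differ once it is edited. Both kinds of cells grew in RPMI1640 with 10% serum, and the labels name no stimulus. The edited cells and the control were bought, as the study's methods state. The labels name neither clones nor separate cultures, so the p-values measure the spread between libraries, which may be technical, and differences between clones cannot be told apart from loss of IKAROS.

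Values are FPKM, fragments per kilobase of transcript scaled to library depth. Levels set side by side between genes depend on the transcript lengths used in the estimates. Per library the FPKM summed to between 699352 and 738051, between 12446 and 12692 genes reached 1 FPKM, and mitochondrial transcripts held 13% to 14.4% of the sum. IKZF1 RNA was higher, not lower, in the libraries labelled IK-KO (121 ± 15.1 FPKM in WT and 225 ± 30.3 in IK-KO, SD, n = 3 each; limma log2 change 0.89, SE 0.12, adjusted p = 0.00295). An RNA level does not show whether the protein is made, and every direction below is that of libraries so labelled. The study's methods name PCR and western blot as checks of the knockout. Its supplement reports a western blot of IKAROS in wild type MOLT-4 and in different knockout clones. These checks were not analysed here. Of 8 T-ALL markers, 7 had at least 1 FPKM in all 6 libraries, and their sum ran from 813 to 883 FPKM in WT and from 704 to 736 in IK-KO, most of it from CD3E and LCK. Of these markers, RAG1 (58.3 to 16.6 FPKM), DNTT (85.9 to 26.4), CD7 (15.8 to 4.17) and CD5 (25.3 to 11.7) were called lower in IK-KO and PTCRA (1.44 to 2.9) higher, and the part of this in the results below was not tested. None of the 15 markers of other cells had at least 1 FPKM in all 6 libraries. The summed levels were 0.75 to 2.19 (WT) and 0.36 to 0.811 FPKM (IK-KO) for 4 B cell genes, 0.0842 to 0.617 and 0.29 to 0.591 for 4 myeloid genes, 0 to 0.313 and 0 to 0.612 for 3 erythroid genes (1 of them at 0 in all libraries), and 0.821 to 2.08 and 1.15 to 1.8 for 4 fibroblast and epithelial genes (2 at 0 in all libraries).

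JUND, JUNB and EGR1 were called higher in IK-KO, and no member was called lower. A gene is called at an adjusted p under 0.05 in limma, fitted to log2(FPKM + 1) over all 12652 genes with Benjamini-Hochberg adjustment. At an unadjusted p under 0.05, 4 members were higher (ATF3 being the other) and 0 lower. Of all 12652 tested genes, 4227 were under that threshold in either direction. The 3 calls among 6 tested members stand beside a background of 19.9% of all tested genes called, 10.1% higher and 9.75% lower. Since the members were chosen with earlier results of these data known, the count is a description. The groups did not overlap, with IK-KO above WT, for JUND, JUNB and EGR1, against 20.9% of all tested genes, and with IK-KO below WT for JUN, against 18.1%. The libraries of IER2 and ATF3 overlapped between groups. EGR1 passed the filter on low values only through the libraries in which it was high, and all 3 calls were lost in several other settings, given with each gene. In bulk RNA, a change in the share of cells expressing a gene and a change in RNA per cell cannot be told apart.

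**Figure D1:**
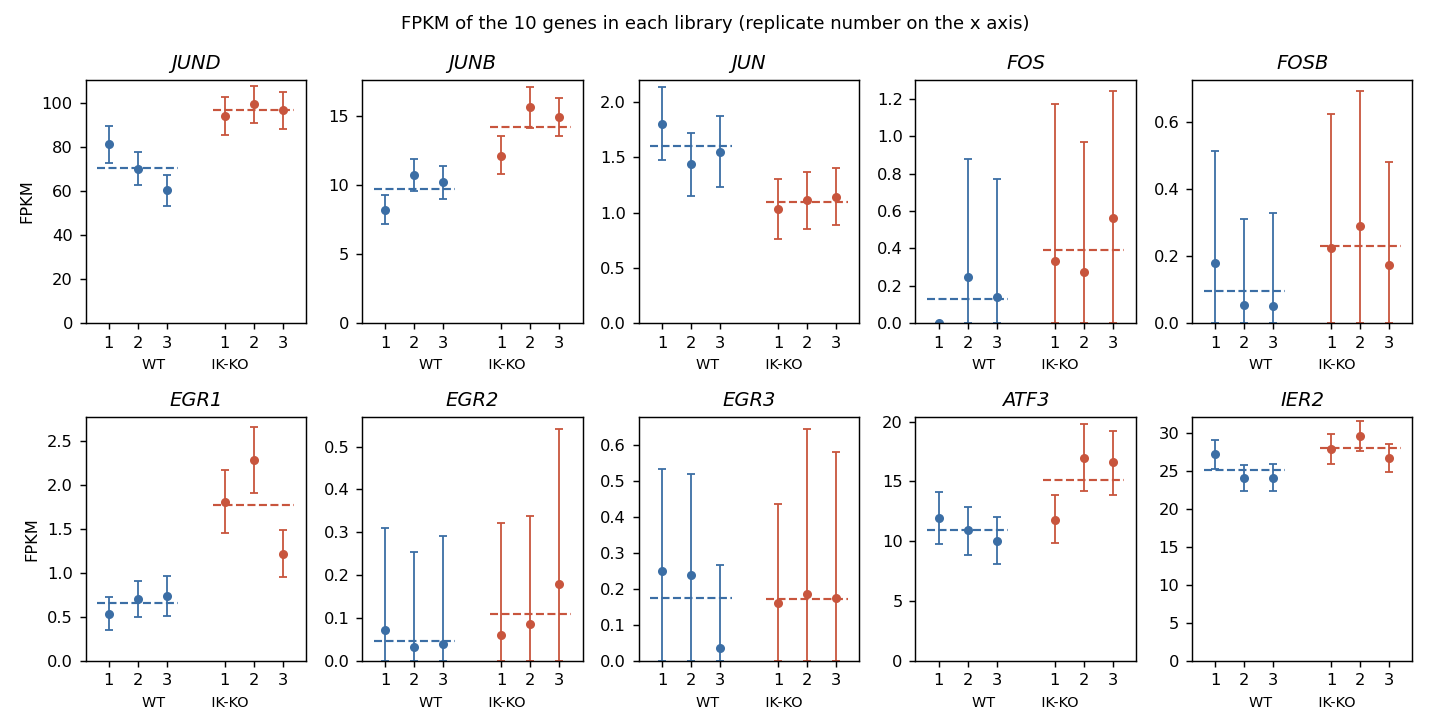
FPKM (y axis, linear, from 0) of each of the 10 genes in WT replicates 1 to 3 (blue) and IK-KO replicates 1 to 3 (red). Points are libraries, bars the deposited confidence bounds and dashed lines the group means. JUND, JUNB and EGR1 lie higher in all 3 IK-KO libraries, JUN lies lower, and the bounds of FOS, FOSB, EGR2 and EGR3 reach 0 in every library.

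The 10 genes spanned a wide range of levels. JUND was the most abundant in both groups, above 90.2% of all tested genes in WT and 92.8% in IK-KO, and IER2 followed, above 71% and 73.7%. ATF3 and JUNB came next with overlapping libraries. Below them stood JUN and EGR1, in that order in WT and in the reverse order in IK-KO. FOS, FOSB, EGR2 and EGR3 came last, in the order EGR3, FOS, FOSB, EGR2 in WT and FOS, FOSB, EGR3, EGR2 in IK-KO, and neighbours in either order overlapped. The 10 FPKM values together summed to 131, 119 and 107 in WT and to 150, 166 and 159 in IK-KO. JUND alone held 56.4% to 61.9% of that sum in WT and 60% to 63% in IK-KO, so its share overlapped between groups. The deposited confidence bounds implied 293 to 547 fragments per library for JUND and 246 to 441 for JUNB, whose FPKM was far lower. The rank and share of JUND thus rest on its FPKM estimate, which was not checked.

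Promoter sequence is shown for some of the genes: JUND, JUNB and EGR1, which were called, and FOS and EGR2, inducible genes whose RNA was near 0. FOSB, whose RNA was also near 0, is not printed. The bases lie directly before a RefSeq start on GRCh38.p14 and read 5′ to 3′ along the gene's strand. The stretches have 120 bases, except that of JUND, where 210 are shown and take in its full CRE. Capitals mark motif matches, on either strand, to the CRE core (TGACGT, in reverse ACGTCA), the full CRE (TGACGTCA), the CArG box (CC, then 6 bases A or T, then GG) or the IKAROS core (TGGGAA, in reverse TTCCCA).
FOS, chr14:75278708-75278827, plus strand: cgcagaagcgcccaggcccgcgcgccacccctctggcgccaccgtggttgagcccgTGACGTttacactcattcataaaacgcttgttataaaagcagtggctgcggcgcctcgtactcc
EGR1, chr5:138465359-138465478, plus strand: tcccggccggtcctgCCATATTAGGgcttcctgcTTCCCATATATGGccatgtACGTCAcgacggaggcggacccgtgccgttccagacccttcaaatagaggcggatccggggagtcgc
EGR2, chr10:62816367-62816486, minus strand: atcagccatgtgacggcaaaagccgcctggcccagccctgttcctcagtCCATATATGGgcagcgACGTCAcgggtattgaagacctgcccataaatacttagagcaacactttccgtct
JUND, chr19:18281623-18281832, minus strand: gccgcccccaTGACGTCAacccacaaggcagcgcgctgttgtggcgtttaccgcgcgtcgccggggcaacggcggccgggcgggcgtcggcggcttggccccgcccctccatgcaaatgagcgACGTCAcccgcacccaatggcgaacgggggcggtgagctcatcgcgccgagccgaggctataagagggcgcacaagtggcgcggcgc
JUNB, chr19:12791366-12791485, plus strand: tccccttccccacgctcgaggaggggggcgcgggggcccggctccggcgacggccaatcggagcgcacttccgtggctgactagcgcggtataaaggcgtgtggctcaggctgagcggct

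The EGR1 stretch held a pair of CArG boxes, at -105 to -96 and -83 to -74 from the start, and a CRE core at -67 to -62. An IKAROS core on the other strand, at -86 to -81, shared its inner bases with the nearer CArG box, so their capitals run together. EGR2 held 1 CArG box and 1 CRE core in front of the most downstream of its 3 RefSeq starts, which lies inside the EGR2 gene as GENCODE release 44 draws it. That start was picked for printing because its window held a CArG box, and the other EGR2 windows held no CArG box and no CRE core. FOS held a CRE core at -64 to -59. JUND held a full CRE at -200 to -193, which itself contains the core in both directions, and a further core at -87 to -82. JUNB had none of these letters in the stretch. A match is a string of letters and not a measured binding site.

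Over the whole windows, 250 bases before to 50 after a start, RefSeq gave 12 windows for 9 of the 10 genes. FOSB also had a CRE core (-60 to -55), EGR1 a second one (-136 to -131) and an EGR site (GCGNGGGCG, at -198 to -190), and EGR2 an EGR site at 9 to 17 after its second start. An IKAROS core stood in JUN (-83 to -78) and ahead of the first ATF3 start (-9 to -4). IER2 and JUNB windows held none of the motifs, and no member window held the AP-1 element TGACTCA. Bases beyond the windows and variants of the letters were not searched, so a gene without a match here may still have a site. Of all 35116 RefSeq windows, 1.29% held a CArG box, 1.85% the full CRE, 7.98% the CRE core, 9.43% the EGR site, 4.95% TGACTCA and 24% the IKAROS core.

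**Figure D2:**
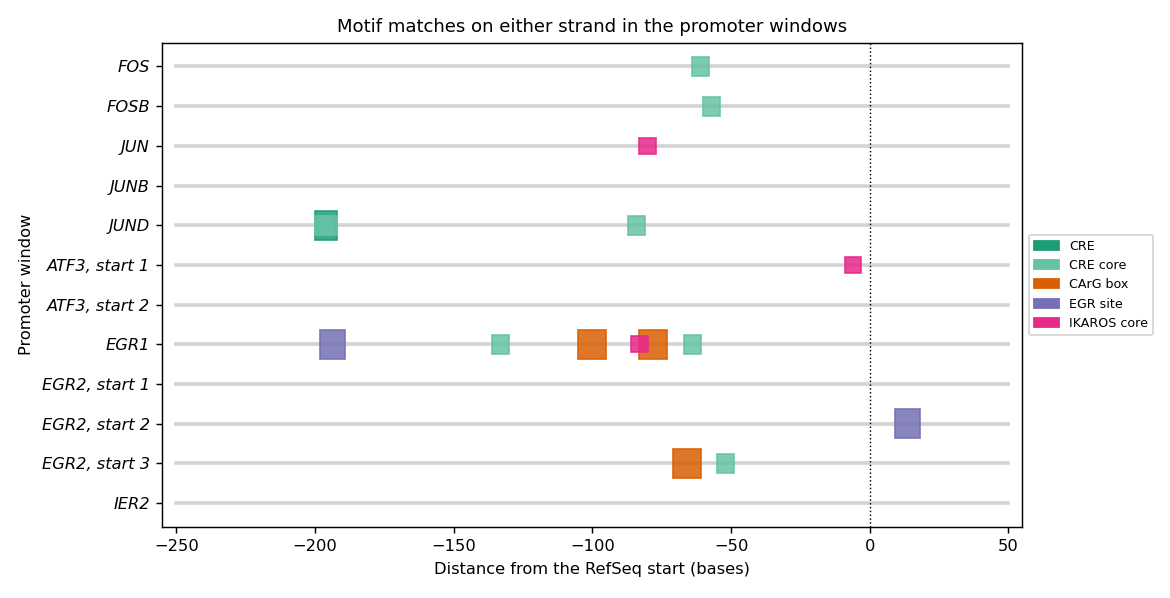
Motif matches in the 12 promoter windows of 9 genes, by distance from the RefSeq start in bases (x axis, start at 0). Coloured boxes are matches on either strand, and grey lines the windows. Within these windows, CArG boxes stand only in EGR1 and in the third EGR2 window, whereas CRE cores stand in FOS, FOSB, JUND, EGR1 and that EGR2 window. Bases farther from the start were not searched.

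Among the JUN proteins, JUND and JUNB rose while JUN did not pass the test. JUND (ENSG00000130522.6, chromosome 19, 18279694 to 18281622, a gene of 1 exon) encodes the family member that many cells keep at a steady level without a stimulus. It measured 81.3, 70.3 and 60.5 FPKM in WT and 94.4, 99.5 and 96.9 in IK-KO, in the order of replicate numbers, as for every gene below. All IK-KO libraries lay above all WT libraries, and the WT libraries spread more widely. The means were 70.7 ± 10.4 and 96.9 ± 2.55 FPKM (SD, n = 3 each), a 1.37-fold difference. The limma log2 change was 0.46 (SE 0.10, 95% interval 0.22 to 0.70, adjusted p = 0.0198). The deposited bounds of the nearest pair of libraries met, at 89.7 FPKM above the highest WT value and 85.4 below the lowest IK-KO value. Of the 20 tested genes nearest to JUND on the chromosome, 7 were higher in IK-KO, and their median log2 change was -0.12. The call was lost without WT replicate 2 (adjusted p = 0.062) and without IK-KO replicate 1, 2 or 3 (0.0547, 0.0699 and 0.0611), and with no filter on low values (0.0795), with log2 changes over all 17 alternatives from 0.35 to 0.58.

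JUNB (ENSG00000171223.6, chromosome 19, 12791486 to 12793315, 1 exon) encodes a JUN protein that can restrain JUN in AP-1 pairs. Its levels were 8.21, 10.7 and 10.2 FPKM in WT and 12.1, 15.6 and 14.9 in IK-KO. The groups did not overlap, although WT replicate 2 and IK-KO replicate 1 came close. The means were 9.72 ± 1.33 and 14.2 ± 1.82 FPKM (SD, n = 3 each), 1.46-fold, and the limma log2 change was 0.50 (SE 0.13, 95% interval 0.20 to 0.81, adjusted p = 0.0343). The tables list HOOK2 over the same bases, at 5.49 FPKM in WT and 7.13 in IK-KO, and whether strand was used in counting is not given in the sources used here. The call was lost without WT replicate 1, 2 or 3 (adjusted p = 0.093, 0.0536 and 0.0764), without IK-KO replicate 2 or 3 (0.11 and 0.104), with no filter on low values (0.107) or one at a mean FPKM of 0.1 (0.0523), and after the median change of its 20 neighbours was taken off (log2 change 0.46, adjusted p = 0.0508).

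JUN (ENSG00000177606.7, chromosome 1, 58780791 to 58784047 in the tables, 1 exon in its main transcript) encodes the founding partner of FOS. It measured 1.8, 1.44 and 1.55 FPKM in WT and 1.03, 1.11 and 1.14 in IK-KO. Every IK-KO library lay below every WT library, but the difference did not pass the test: 1.59 ± 0.186 against 1.1 ± 0.0604 FPKM (SD, n = 3 each), limma log2 change -0.31 (SE 0.15, 95% interval -0.65 to 0.04, adjusted p = 0.198). The deposited bounds implied 58.9 to 119 fragments per library for these values. The 20 neighbours of JUN had a median log2 change of -0.16, and with that taken off the change of JUN was -0.15 (adjusted p = 0.527). Without a mean-variance trend in limma JUN was called (adjusted p = 0.0425).

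The make-up of the JUN family can be described from the same values. Its summed level was 91.3, 82.5 and 72.3 FPKM in WT and 108, 116 and 113 in IK-KO. JUND held 83.7% to 89% of that sum in WT and 85.6% to 87.8% in IK-KO, whereas JUN held 1.74% to 2.14% in WT and 0.956% to 1.01% in IK-KO. The ratio of JUNB to JUN was 4.56, 7.47 and 6.61 in WT and 11.8, 14 and 13 in IK-KO, with no overlap. No test was made of these ratios. The shares of the family rest on the FPKM estimate of JUND, with the limit given above.

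Their usual partners, the FOS proteins, were barely present in RNA. FOS (ENSG00000170345.10, chromosome 14, 75278826 to 75282230, 4 exons in the main transcript) was listed at 0, 0.247 and 0.139 FPKM in WT and at 0.332, 0.277 and 0.565 in IK-KO. The order of the libraries put all IK-KO above all WT values, yet the lower deposited bound was 0 in all 6 and at most 2.83 fragments were implied in any library. FOSB (ENSG00000125740.14, chromosome 19, 45467995 to 45475179, 4 exons), the closest relative of FOS, stood at 0.18, 0.0548 and 0.0526 FPKM in WT and at 0.223, 0.289 and 0.174 in IK-KO, with overlap. Its locus in the tables overlaps ERCC1, listed at 22.5 FPKM in WT and 23.4 in IK-KO. Neither gene passed the filter. When all genes with any value were fitted, the limma log2 changes were 0.30 for FOS (adjusted p = 0.236) and 0.17 for FOSB (adjusted p = 0.222), so neither was called.

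EGR1 had the largest change of the 6 tested genes. EGR1 (ENSG00000120738.8, chromosome 5, 138465479 to 138469303, 2 exons), whose promoter stretch above carries the pair of CArG boxes, measured 0.536, 0.704 and 0.737 FPKM in WT and 1.81, 2.29 and 1.22 in IK-KO. Every WT library was below 1 FPKM and every IK-KO library above it, so its mean of 1.22 over the 6 libraries passed the filter at 1 only because of the IK-KO group. IK-KO replicate 3 stood nearest to WT, with a lower bound of 0.953 FPKM against an upper bound of 0.964 for WT replicate 3. The means were 0.659 ± 0.108 and 1.77 ± 0.534 FPKM (SD, n = 3 each), 2.69-fold, on 33.4 to 148 implied fragments. On the log2(FPKM + 1) scale, which understates changes of low genes, the change was 0.72 (SE 0.20, 95% interval 0.26 to 1.19, limma adjusted p = 0.0405), and with a pseudocount of 0.1 it was 1.27. The call was lost without WT replicate 1, 2 or 3 (adjusted p = 0.0953, 0.0816 and 0.066), without IK-KO replicate 1 or 2 (0.0991 and 0.108), with its neighbours' median taken off (0.0619), with no filter on low values (0.0848) and with a replicate block (0.0837), always with EGR1 higher in IK-KO.

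EGR1 and JUN exchanged places in the order of levels. The ratio of EGR1 to JUN was 0.298, 0.49 and 0.477 in WT and 1.76, 2.06 and 1.07 in IK-KO, below 1 in the WT libraries and above 1 in the IK-KO libraries. This ratio joins a called gene with one that was not called, and it was not tested.

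EGR2 and EGR3, which share the zinc fingers of EGR1 and act in developing T cells, were not measurable in either group. EGR2 (ENSG00000122877.16, chromosome 10, 62811996 to 62919900 in the tables, which runs past the GENCODE end at 62819167) stood at 0.0708, 0.0317 and 0.0385 FPKM in WT and at 0.0592, 0.0868 and 0.18 in IK-KO. EGR3 (ENSG00000179388.9, chromosome 8, 22687659 to 22693480) stood at 0.25, 0.238 and 0.0346 FPKM in WT and at 0.159, 0.185 and 0.174 in IK-KO. Libraries overlapped for both, under 1 fragment was implied for EGR2 (at most 0.985) and at most 3.09 for EGR3, and neither could be told from 0. With no filter the limma log2 changes were 0.08 for EGR2 (adjusted p = 0.423) and 0.00 for EGR3 (adjusted p = 1).

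ATF3 and IER2 were expressed at intermediate levels and were not called. ATF3 (ENSG00000162772.17, chromosome 1, 212565334 to 212620777, 4 exons in the main transcript), a stress-induced factor that often represses, measured 11.9, 10.9 and 10 FPKM in WT and 11.8, 17 and 16.6 in IK-KO. IK-KO replicate 1 lay within the WT range, while the other IK-KO libraries lay above it. The means were 10.9 ± 0.949 and 15.1 ± 2.86 FPKM (SD, n = 3 each), with a limma log2 change of 0.42 (SE 0.14, 95% interval 0.09 to 0.76, adjusted p = 0.0826). Without IK-KO replicate 1 the change was 0.58 and was called (adjusted p = 0.0171).

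IER2 (ENSG00000160888.7, chromosome 19, 13150411 to 13154911, 2 exons) had the smallest change of the 6 tested genes. It measured 27.2, 24 and 24.1 FPKM in WT and 27.8, 29.6 and 26.7 in IK-KO, on 721 to 880 implied fragments. WT replicate 1 lay above IK-KO replicate 3, so the groups overlapped. The limma log2 change was 0.16 (SE 0.07, 95% interval -0.02 to 0.33, adjusted p = 0.192), and it was called in none of the 17 alternatives.

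**Figure D3:**
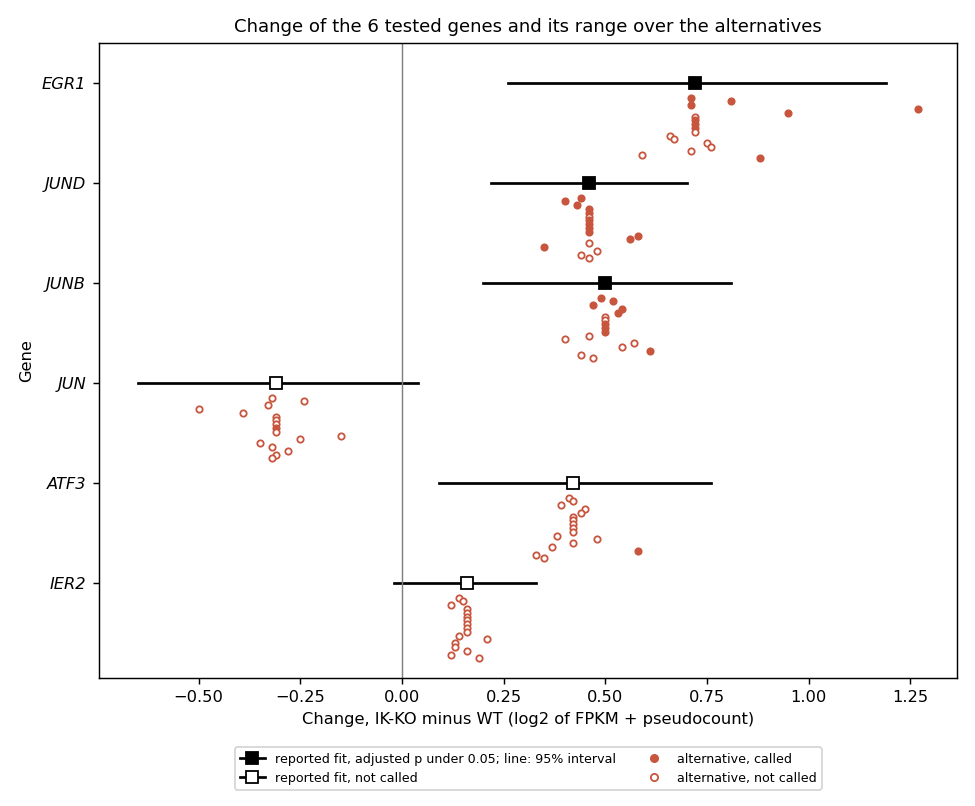
Change of the 6 tested genes, IK-KO minus WT, on the log2 scale (x axis). Squares and lines give the limma estimate and its 95% interval, filled where called, and the red points below each give the 17 alternatives, filled where called. The direction was the same in all alternatives for each gene, while the calls of JUND, JUNB and EGR1 were lost in 5, 8 and 8 of them.

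Genes around this group were followed as lists, of which 59 of 82 genes were tested, with 10 called higher, 5 called lower and a median log2 change of 0.09, against 10.1% called higher, 9.75% called lower and a median of 0.02 over all tested genes. The lists too were chosen with earlier results of these data known, so their counts are descriptions. Of 8 other AP-1 family genes, 5 were tested, and BATF and ATF2 were called, in opposite directions. BATF, a leucine zipper protein that pairs with JUN proteins and IRF4 in T cells, measured 5.03, 6.7 and 6.47 FPKM in WT and 1.28, 1.09 and 0.901 in IK-KO. It was low in every IK-KO library (limma log2 change -1.75, SE 0.15, adjusted p = 0.00042) and was called in all 17 alternatives. ATF2, a CRE-binding partner of JUN, was 25 ± 2.68 FPKM in WT and 31 ± 0.89 in IK-KO (SD, n = 3 each; limma log2 change 0.30, adjusted p = 0.0466), and 11 of 17 alternatives lost that call, among them leaving out WT replicate 2 or 3 or any IK-KO library (adjusted p between 0.066 and 0.128).

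NAB2, a corepressor that binds EGR proteins and is itself a known EGR target, rose: 4.55, 4.39 and 3.47 FPKM in WT and 6.95, 7.68 and 7.03 in IK-KO. The groups were far apart (limma log2 change 0.68, SE 0.12, adjusted p = 0.00727), and the call held in all 17 alternatives. Its relative NAB1 was not called (limma log2 change 0.28, adjusted p = 0.0537), and EGR4 was below the filter. EGR1 and NAB2 were both called higher, NAB2 with the smaller SE, and a link between them was not tested.

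Of 30 other immediate early and early response genes, 19 were tested, 3 were called higher and 1 lower, and their median log2 change was 0.01. TNFAIP3, a brake on NF-kB signalling, measured 12.4, 12.1 and 8.76 FPKM in WT and 23.3, 24.8 and 21.8 in IK-KO (limma log2 change 1.02, SE 0.13, adjusted p = 0.00243). ZFP36, which speeds the decay of mRNAs with AU-rich elements, went the other way, from 5.37 ± 0.634 to 2.84 ± 0.477 FPKM (SD, n = 3 each; limma log2 change -0.73, adjusted p = 0.011). IER3 and IER5, named after their values were seen, were the other called genes, at log2 changes of 0.78 (adjusted p = 0.0156) and 0.66 (adjusted p = 0.00277). The call of IER3 was lost without IK-KO replicate 2 (adjusted p = 0.0586) and with no filter on low values (adjusted p = 0.0605).

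All 19 kinases and transcription factors listed as upstream regulators, among them SRF, the ELK factors, CREB1 and MAP kinases, were tested, and RPS6KA1 alone was called. RPS6KA1 encodes the ribosomal S6 kinase RSK1, which ERK activates. It measured 10.4, 8.29 and 8.08 FPKM in WT and 5.78, 5.57 and 5.79 in IK-KO, lower in each IK-KO library (limma log2 change -0.55, SE 0.11, adjusted p = 0.0132). The median log2 change of the list was 0.09.

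Of 10 genes known as AP-1, EGR or NFAT targets in T cells, 5 were listed at 0 in all libraries and 4 were tested. IL2, the T cell growth factor, measured 3.7, 3.23 and 3.08 FPKM in WT and 0.684, 0.713 and 0.556 in IK-KO, low in all IK-KO libraries (limma log2 change -1.39, SE 0.14, adjusted p = 0.000854). ID3, an inhibitor of E proteins that EGR1 is known to induce in thymocytes, rose from 118 ± 3.89 to 165 ± 7.21 FPKM (SD, n = 3 each; limma log2 change 0.48, SE 0.05, adjusted p = 0.00107). IL2 was below 1 FPKM in every IK-KO library and passed the filter only through the WT libraries, in which it was high. Both calls held in all 17 alternatives, the fit with no filter among them. The other tested genes of the list were not called: CD69 (limma log2 change 0.16, adjusted p = 0.176) and CBLB (limma log2 change -0.17, adjusted p = 0.554). Whether EGR1 bears on ID3 in these cells was not tested.

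**Figure D4:**
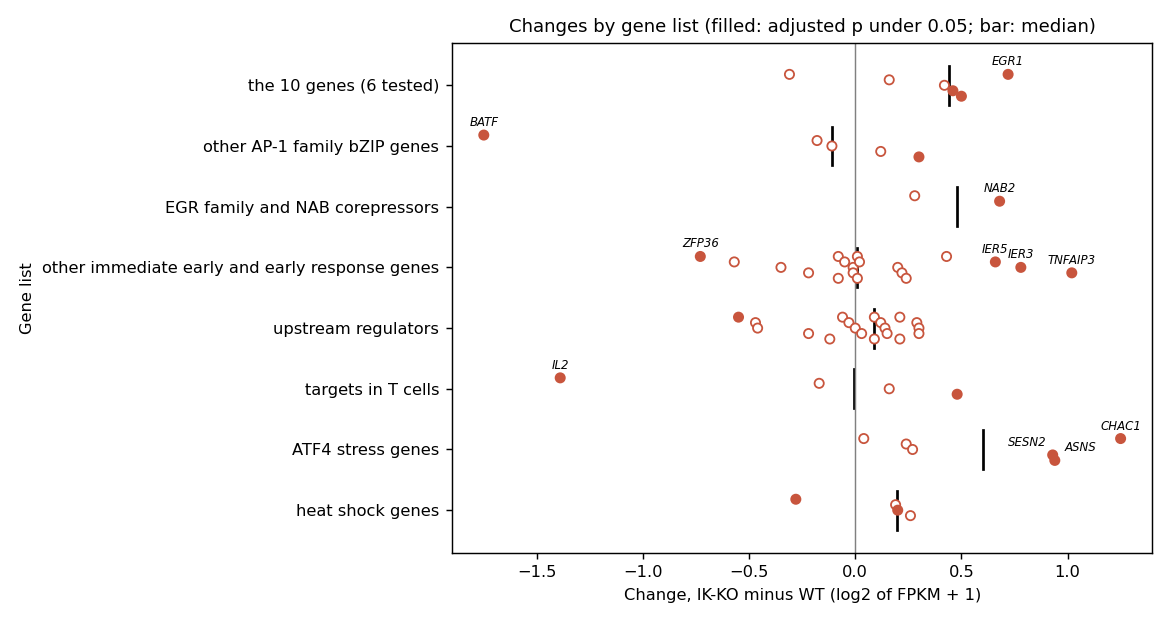
Change of each tested gene, IK-KO minus WT, in log2 of FPKM + 1 (x axis), for the 6 tested members and for 7 lists of related genes (y axis). Filled points have an adjusted p under 0.05 and bars mark medians. BATF at -1.75 and IL2 at -1.39 lie farthest to the left, and CHAC1 at 1.25 and TNFAIP3 at 1.02 farthest to the right.

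The genes whose 6 values ran most like those of EGR1, among 12651 other tested genes, were ZNF521, NUMBL and FAM53B. Likeness was the root mean square difference of log2(FPKM + 1) after centring each gene on its mean, at 0.0253 for ZNF521, 0.0901 for NUMBL and 0.0912 for FAM53B. ZNF521, a zinc finger protein of blood progenitors, rose from a mean of 16.4 to 28.5 FPKM, NUMBL from 1.9 to 4.04 and FAM53B from 6.07 to 10.2, all called higher in limma (adjusted p = 0.009, 0.0246 and 0.00505). Since these genes were picked for likeness to a called gene over the same libraries, their direction is a description.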

How the data were processed

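PolyA RNA of MOLT-4 was sequenced by the authors, who deposited 1 table per library of FPKM with confidence bounds and an estimation status per row. The submitters' processing notes name STAR 2.6.1c, Cufflinks 2.2.1, HOMER 4.10 and hg38; annotation and strand setting are not given in the sources used here. Of 60752 rows, those sharing an identifier (110 identifiers) were summed, and genes of 29 rows with a failed estimate were left out. Depth is not given other than through the bounds. Implied fragments were computed from the bounds as if these held counting error only. They were not checked against read counts, and they differed between genes at like FPKM. FOS had 2.83 at 0.565 FPKM (IK-KO replicate 3) and EGR1 had 33.4 at 0.536 FPKM (WT replicate 1). Groups came from the labels.

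Genes whose FPKM averaged 1 or more were fitted as log2(FPKM + 1) using limma 3.58.1 (R 4.3.3) (mean-variance trend, two-sided, Benjamini-Hochberg over all tested genes); the fit was tested on simulated data. Named are all members; from each list the largest called rise and fall and called genes with an absolute log2 change of at least 1; 3 genes most like EGR1; and IKZF1. Neighbours are the 10 nearest tested genes on each side. The members and lists were chosen with earlier results of these data known. Alternatives were 17 refits: median ratio, quantile or non-mitochondrial scaling, pseudocounts of 0.1 and 0.5, no filter or one at 0.1, failed estimates kept, no trend, a replicate block, neighbours' median removed, and each library left out. Promoters are RefSeq windows of GRCh38.p14.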

Additional observations from a re-analysis of the deposited data

How the results depend on the processing

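Over 102 refits of the 6 tested members (17 alternatives each), the direction was kept in all 102, the call was lost in 21 and gained in 2 (JUN without a mean-variance trend, ATF3 without IK-KO replicate 1). The number of called members, 3 as reported, was 0 with no filter on low values and 1 with the neighbours' median change removed, and ran from 0 to 2 with 1 library left out, with 0 without WT replicate 2 or IK-KO replicate 2 and 1 without WT replicate 1 or 3 or IK-KO replicate 3. Where limma called 0, at an unadjusted p under 0.05 there were 6 higher and 1 lower of 10 members with no filter, and 3 higher and 0 lower of 6 in each of the other fits. The genes counted as higher with no filter include FOS and FOSB, whose lower deposited bound was 0 in every library. In the reported fit 4227 of 12652 tested genes were under that threshold. The share of all genes was not computed for these refits, so their counts have no background and nothing is read from them. Leaving out a library leaves fewer samples, and dropping the filter tests 27286 genes. The count of all called genes ran from 1692 to 2803 and that of the 7 lists of related genes from 11 to 18, both within 1.5 times of 2515 and 15.

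Samples with the same replicate number hardly deviated together (r = 0.0669, 0.0248 and 0.00546 for numbers 1 to 3), so the numbers were not taken to pair libraries. With a replicate block 2 members were called (JUND, adjusted p = 0.043, and JUNB, 0.0187; EGR1 had 0.0837, limma), and 1805 genes in all. For FOS, FOSB, EGR2 and EGR3 the lower deposited bound was 0 in all 6 libraries, and whether depth was the limit was not tested.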

Other observations

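Some stress genes that share inducers with ATF3 were called higher in IK-KO. Of 6 genes of the ATF4 stress response, all tested, 3 were called higher and none lower in limma, with a median log2 change of 0.60, against 10.1% called higher, 9.75% called lower and a median of 0.02 over all tested genes. CHAC1, a glutathione-degrading enzyme, measured 6.15, 5.44 and 6.23 FPKM in WT and 16.3, 14.7 and 15.6 in IK-KO (log2 change 1.25, SE 0.09, limma adjusted p = 0.000181). ASNS, asparagine synthetase, and SESN2, a stress-induced regulator of mTORC1, were the other called genes, named after their values were seen, at log2 changes of 0.94 (adjusted p = 0.0102) and 0.93 (adjusted p = 0.000619). The calls of CHAC1 and SESN2 held in all 17 alternatives, and that of ASNS was lost with no filter on low values (adjusted p = 0.0534). ATF4 itself was not called (423 FPKM in WT, 435 in IK-KO, log2 change 0.04, limma adjusted p = 0.689). DDIT3 (limma adjusted p = 0.25) and TRIB3 (limma adjusted p = 0.0782) were not called either, nor was ATF3.

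Heat shock genes did not move one way. Of 6, 4 were tested. HSPA1A was below the filter, and HSPA8 (1300 FPKM in WT, 1350 in IK-KO) was left out for a failed estimate. DNAJB1, a co-chaperone, was called higher (58.7 ± 1.26 FPKM in WT, 67.7 ± 2.44 in IK-KO, SD, n = 3 each, log2 change 0.20, limma adjusted p = 0.0307). HSPH1, a large chaperone of the HSP110 family, was called lower (72.5 ± 6.13 and 59.5 ± 1.06 FPKM, log2 change -0.28, limma adjusted p = 0.0319). Each call was lost in 8 of 17 alternatives, and with 1 library left out between 0 and 1 of the list was called.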
